A study of Danio rerio with 4 samples.

Results

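The regions described here are 1275 peaks of open chromatin that were called open more often in nuclei in which a peak on chromosome 20, chr20:6812318-6813046, was also open. The nuclei were split into 195 with that peak open and 2542 with it closed. For every other peak, the open calls were taken relative to all open calls of each group, scaled to 1e+06 (CPM), and 10 CPM was added to both. A peak became a member where it was open in at least 20 nuclei, lay more than 100 kb from the chromosome 20 peak and reached a ratio of at least 2. Of the 50394 peaks, 35007 could be tested, 15374 were open in fewer than 20 nuclei, and the chromosome 20 peak and 12 neighbours were left out. Members were 3.64% of the tested peaks. The ratio of this contrast chose them and carries no test, so it is given as a description only.

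The accessibility of nonCMs, the heart cells other than cardiomyocytes, was profiled by scATAC-seq in wild type zebrafish. Libraries were made, 1 for each time, for days 0, 2, 7 and 14 of a series in which the tip of the ventricle was cut off. About 20% of the apex was removed per the labels. The study describes its nuclei as taken from uninjured and regenerating ventricles, so day 0 is read here as the uninjured state. No row of the matrix could be tied to a time point, so all 2737 nuclei were read as 1 pooled sample without replicates, and no change with time after amputation could be measured. Every value of the matrix was 0 or 1. Open peaks per nucleus had a median of 1147 and ranged from 77 to 10959. The barcodes stood in 4 alphabetical runs of 430, 715, 748 and 844 rows. Of 2731 distinct barcodes, 6 occurred in a pair of rows, and 1 of these 12 rows was open at the chromosome 20 peak. Intervals on shares of nuclei are 95% Clopper-Pearson intervals and cover counting error only.

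In scATAC-seq, a transposase inserts adapters into DNA that is not wrapped tightly around nucleosomes, and a droplet barcode links the fragments to their nucleus. Promoters and enhancers, the elements that start and tune transcription, are typically accessible in the cell types that use them. Each nucleus yields only a sparse sample of its open sites, so a closed call can be an open site without a sampled fragment. Peaks on different chromosomes that tend to be open in the same nuclei can therefore mark a shared cell type or state.

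The chromosome 20 peak was 728 bp wide and open in 7.12% of nuclei (6.19 to 8.15%), which placed it at rank 4643 by openness. Nuclei with it open had a median of 1085 open peaks (quartiles 873 and 1394.5), and nuclei with it closed had 1157 (838.25 and 1690.75). The groups thus overlapped widely in depth when all nuclei were pooled. The peak was open in 14 of 430 nuclei of the first run (3.26%), 35 of 715 of the second (4.90%), 73 of 748 of the third (9.76%) and 73 of 844 of the fourth (8.65%). The runs therefore contributed unequally, and the first supplied few open nuclei.

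Of the 12 left-out neighbours, 6 were open in at least 20 nuclei, and 2 of these had a ratio of at least 2. The nearest, chr20:6813790-6814712, lay 744 bp away and was open in 47 of the nuclei with the chromosome 20 peak open and in 109 of those with it closed, a ratio of 4.67. The other, chr20:6822516-6822838, lay 9470 bp away, with 9 and 16 open nuclei and a ratio of 3.09. In contrast, chr20:6755784-6756579, on the other side, was open in 0 of the 195 nuclei and in 56 of the closed ones. For a count of 0 of 195 nuclei, a floor of 3 counts lies at a share of 1.54%, and the ratio of this peak with 10 CPM added was 0.38. Co-opening around the chromosome 20 peak was thus found at some neighbours within 10 kb and not across the whole window.

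Most members lay not far above the limit. Their median ratio was 2.31, with quartiles of 2.13 and 2.63 and a maximum of 5.43, and 420 reached 2.5, 151 reached 3, 11 reached 4 and 1 reached 5. The median over all tested peaks was 0.82, and 4384 tested peaks (12.5%) had a ratio of 0.5 or less. Members held 26224 open calls in the nuclei with the chromosome 20 peak open, 10.2% of all their calls, against 120987 (3.47%) in the others. A typical member was open in 86 nuclei (quartiles 52 and 155), and the other tested peaks had a median of 56. It was open in 8.21% of nuclei with the chromosome 20 peak open and in 2.75% of the rest. Single ratios rested on few calls. The median member had 16 calls in the 195 nuclei, 222 members (17.4%) had fewer than 10, and the lowest number was 5.

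The member with the highest ratio was chr20:840030-840355. It was open in 17 of the 195 nuclei (8.72%) and in 14 of the 2542 (0.55%), a ratio of 5.43. The next were chr7:56886408-56886766, with 18 and 21 open nuclei (ratio 4.99), and chr5:42232100-42232400, with 18 and 22 (4.91). The 4 runs held 14, 35, 73 and 73 nuclei with the chromosome 20 peak open. Of these, 0, 0, 13 and 5 were open at chr7:56886408-56886766 and 0, 1, 12 and 5 at chr5:42232100-42232400. For chr20:840030-840355 they were 2, 1, 9 and 5. These members were thus rarely open in either group, and even with the chromosome 20 peak open they were open in fewer than 10% of nuclei. A larger share was reached by chr5:42277536-42278100, which was open in 27.2% against 5.23% (53 and 133 nuclei, ratio 4.49). It lay 45.1 kb from the other named member on chromosome 5. Both chr21:8867778-8868433, with 34 and 75 open nuclei (4.51), and chr11:45198993-45199392, with 33 and 74 (4.43), were of middle openness. The highest 10 were completed by chr20:30907201-30907623 (17 and 26, ratio 4.36), chr6:36465301-36465619 (22 and 44, 4.23), chr23:27564068-27564614 (21 and 42, 4.16) and chr3:60317912-60318303 (16 and 26, 4.14). They lay on 8 chromosomes, and the intervals of the open and closed groups did not overlap at any of them, as the choice by ratio implies. The share of all tested peaks with intervals apart was not counted, so this is not read as a result.

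**Figure D1:**
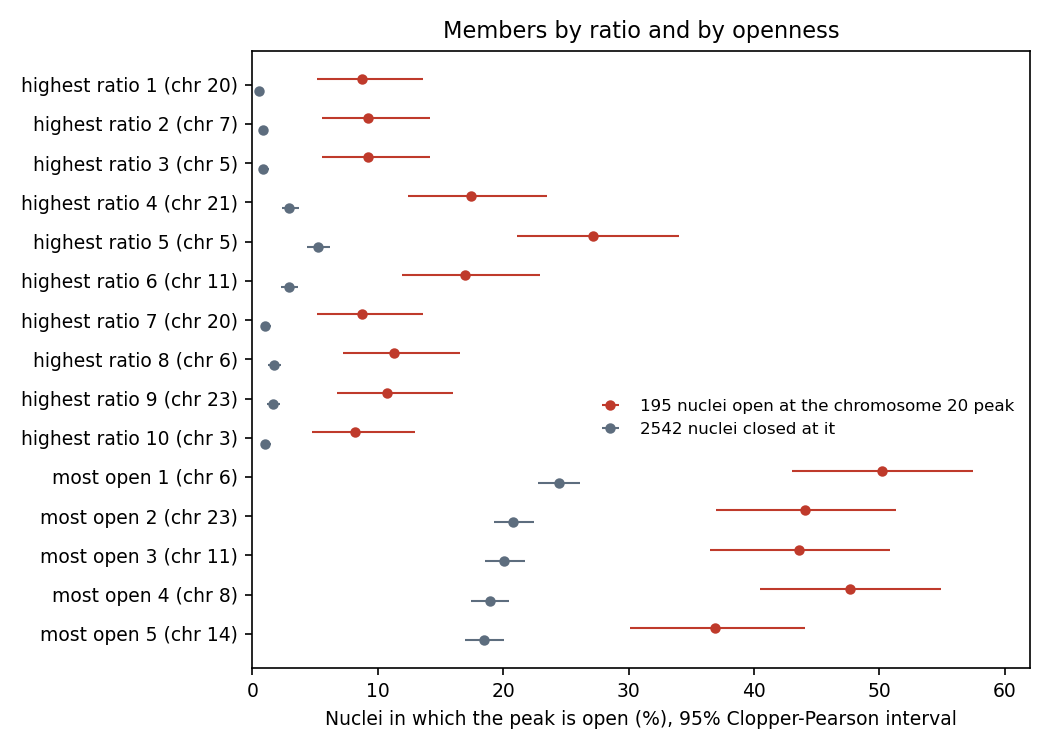
Share of nuclei (%) in which the 10 members with the highest ratio and the 5 most open members were open, with 95% Clopper-Pearson intervals, in the 195 nuclei open at the chromosome 20 peak (red) and the 2542 closed at it (grey). The members with the highest ratio were open in 0.55 to 5.23% of closed nuclei, and the most open ones in 18.5 to 24.4%.

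The most open members were of another kind. The first, chr6:43027993-43029463, was open in 719 nuclei, in 50.3% of the nuclei with the chromosome 20 peak open and in 24.4% of the rest, a ratio of 2.08. It was followed by chr23:13874607-13875281 (615 nuclei, ratio 2.13), chr11:37997285-37997956 (596, 2.18), chr8:26059370-26061049 (574, 2.51) and chr14:15155450-15156121 (542, 2.00). Among these broadly open sites, chr8:26059370-26061049 showed the widest gap, 47.7% against 18.9%. At the limit, chr8:20140694-20140995, chr20:35255503-35256009 and chr12:26608982-26609637 had 16 and 91 open nuclei each and a ratio of 2.00. Just outside it lay chr17:43775975-43776829 (12 and 64), chr5:71998187-71998575 (26 and 159) and chr16:29690084-29691130 (40 and 254), with ratios of 1.998 to 1.999. Peaks on either side of the limit were thus alike in their calls, and the set has no natural edge there.

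Members were found at all levels of openness, but unevenly. They were 1.60% of tested peaks open in 20 to 39 nuclei (189 of 11843), 3.94% of those in 40 to 79 (392 of 9948), 5.45% in 80 to 159 (389 of 7133), 5.81% in 160 to 399 (283 of 4874) and 1.82% in 400 or more (22 of 1209). The 10 CPM added to each level hold back the ratio of rarely open peaks, and a peak open in many nuclei cannot reach a high ratio easily, so this profile partly follows from the rule. Members had a median width of 438 bp (interval of the median 427 to 451), against 386 bp for the other tested peaks. Set beside peaks of like openness, whose median was 430 bp, the difference shrank from 52 to 8 bp. Members open in 160 to 399 nuclei were wider than the others of that class (615 against 565 bp), and those in 20 to 39 nuclei were narrower (273 against 299 bp).

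All 25 chromosomes held members, at a mean of 3.58% of their tested peaks with an SD of 0.884 over chromosomes. Chromosome 2 had the highest share, 88 of 1486 (5.92%, 4.78 to 7.25%), followed by chromosome 8 (5.09%), chromosome 6 (4.64%) and chromosome 5 (4.50%). That interval counts peaks as independent, which neighbouring peaks are not, and belongs to the highest of 25 chromosomes. Chromosome 9 (2.21%) and chromosome 24 (2.23%) had the lowest. Chromosome 20 itself was near the mean, with 56 of 1466 (3.82%). The members were thus spread over the genome and not gathered on the chromosome of the peak that chose them.

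At a finer scale the members were grouped. Within 5 kb of a member, centre to centre, 240 of 862 tested neighbours were members as well (27.8%). The share was 17.4% at 5 to 20 kb, 11.2% at 20 to 50 kb and 5.58% at 50 to 100 kb. Beyond 100 kb it was 3.73 to 3.76%, close to the 3.64% of all tested peaks. Pairs are counted from both ends, and neighbouring peaks were read in the same nuclei, so they are not independent. The distance between members was not used by the rule.

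**Figure D2:**
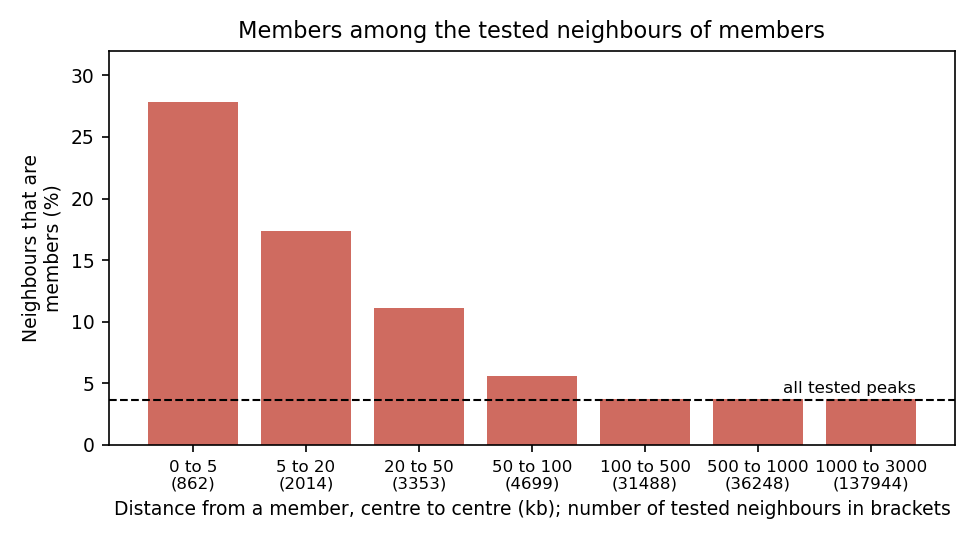
Share (%) of the tested peaks around a member that are themselves members, by distance in kb from centre to centre, with the number of tested neighbours in brackets. The bars fall from 27.8% within 5 kb to the dashed line of all tested peaks (3.64%) beyond 100 kb.

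When members with gaps of at most 50 kb were joined, 512 members (40.2%) fell into 198 stretches of 2 to 8 members, and 763 stood alone. Members also lay closer to the nearest peak of any kind, at a median gap of 3701 bp against 4904 bp for other tested peaks. A like number of other peaks was not joined, so the part of peak density in the 40.2% was not tested. There were 29 stretches with at least 4 members, which held 136. Each stretch begins and ends at a member and was made by joining members. A high share of members among its tested peaks therefore partly follows from the joining. Here and in the stretches below, gaps between open and closed nuclei at members follow from the choice by ratio. They are descriptions, and their intervals are no test. The longest by count, chr11:25403580-25461912, spanned 58.3 kb, and all 8 of its tested peaks were members, with ratios of 2.06 to 2.60. At least 1 of them was open in 103 of the 195 nuclei (52.8%, 45.6 to 59.99%) and in 21.4% of the others (19.8 to 23.05%). The most open of its peaks was chr11:25461068-25461912, in 195 nuclei, and up to 6 of the 8 were open in 1 nucleus.

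The stretch chr5:42232100-42286123 held 7 members among 10 tested peaks and contained both named members of that chromosome. At least 1 of its members was open in 66.7% (59.6 to 73.2%) of nuclei with the chromosome 20 peak open and in 20.97% (19.4 to 22.6%) of the rest, the largest gap among the 10 stretches with 5 or more members. Its most open member, chr5:42272495-42272965, was open in 72 of the 195 nuclei (36.9%) and in 10.7% of the others. Within the same 54.0 kb, chr5:42245252-42245793 was open in 424 nuclei but had a ratio of 0.70. This peak, below the median of 0.82 over all tested peaks, lay between members at gaps of 12.9 and 13.2 kb, and the other tested peaks of the stretch that were no members had ratios of 1.16 and 1.65.

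On chromosome 3, chr3:55065837-55105429 held 6 members among 7 tested peaks, with ratios of 2.35 to 3.07. Its most open member, chr3:55105053-55105429, was open in 43 of the 195 nuclei (22.1%) and in 7.04% of the others. The small peak chr3:55069366-55069584 inside it, open in 17 nuclei and so not tested, had a ratio of 2.53. A further stretch of that chromosome, chr3:20063081-20103408, held 5 members among 6, led by chr3:20091942-20092455 with 27.2% against 8.14%. In chr7:27730480-27799029, 7 of 12 tested peaks were members. Of these, 6 stood in its last 27.4 kb, where chr7:27771644-27772125 was open in 23.6% against 6.37% of nuclei, while 4 tested peaks between 27740259 and 27764679 had ratios of 0.85 to 1.57.

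The remaining stretches of this size were chr2:33304294-33342091 (6 of 10 tested peaks), chr6:47969130-48093997 (6 of 9), chr8:25298892-25340810 (5 of 8), chr23:27547520-27608558 (5 of 7) and chr22:16498591-16579035 (5 of 15). At least 1 member was open in 35.4 to 59.5% of the nuclei with the chromosome 20 peak open in these stretches and in 12.4 to 27.0% of the others. In the stretch on chromosome 22, chr22:16578009-16579035 was open in 31.8% against 11.2%, but chr22:16506141-16506733, 7.17 kb from the nearest member, was open in 2.56% against 7.40%, a ratio of 0.46. The stretch on chromosome 23 contained chr23:27564068-27564614, 1 of the 10 members of highest ratio.

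Gene positions of the build of the matrix were not used here, so members are given by position. A list that accompanies the study, of which a part was used, attaches symbols to regions overlapping 5 members. It holds accessible regions of epicardial cells and fibroblasts that coincide with known candidate tissue regeneration enhancer elements. The share of all tested peaks that overlap the list was not counted, so the number 5 is not read as high or low. These were picked for having a symbol, after their values were seen. The member at ctbp2a, which encodes a transcriptional corepressor, was chr17:8670068-8670639, open in 30 of the 195 nuclei (15.4%) and in 85 of the others (3.34%), a ratio of 3.68. The member at nfixa, a transcription factor gene of the nuclear factor I family, was chr1:51958872-51959621, with a ratio of 2.38. The others were near the limit: chr14:39862288-39862717 at pcdh19, a protocadherin gene (2.21), chr18:10801987-10802355 at rbm28, which encodes an RNA-binding protein (2.19), and chr14:24337861-24338243 at fam13b (2.18). A symbol here is the name given to a region and does not show which gene a member regulates.

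To read the members in nuclei that had not chosen them, the rule was applied without each run of rows in turn and the chosen peaks were measured in that run. This chose 1305, 1371, 1286 and 1476 peaks. In the left-out run, they held 4.69% of the calls of open nuclei against 2.86% of closed ones in the first run, 8.03 against 3.59% in the second, 9.30 against 4.099% in the third and 10.5 against 5.25% in the fourth. Their pooled ratios, open share over closed share without added CPM, were 1.64, 2.24, 2.27 and 2.00. Those of the other tested peaks were 0.966 to 0.987. For the 1275 members on all rows, which had chosen them, these shares were 10.2 and 3.47%. Taken peak by peak, the held-out ratios were lower, with medians of 1.096, 1.72, 1.86 and 1.63, against 2.31 for the members on all rows. The held-out medians of the other tested peaks were 0.68 to 0.77. The excess therefore recurred in rows outside the choice in all 4 runs, and it was smallest in the first run, which had 14 open nuclei. Single peaks recurred less often. A ratio of at least 2 was reached again by 30.6, 40.9, 43.3 and 35.6% of the chosen peaks, against 14.9, 9.63, 7.21 and 6.64% of all peaks tested. Of the 1275 members, 671 (52.6%) had a ratio above 1 in each of the 4 runs, as did 6.78% of tested peaks, but the full choice had used these rows. In the first run, 439 members were at 0 in the 14 open nuclei. The share of all tested peaks at 0 there was not counted, so 439 is not read as high or low.

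The share of a nucleus's open calls that lay in members, with members chosen without its own run, was then taken nucleus by nucleus. Its median was 11.1% (quartiles 8.65 and 12.4%) in nuclei with the chromosome 20 peak open and 2.60% (1.91 and 7.45%) in those with it closed. Both groups had a low and a high mode. Of the 756 nuclei with a share under 2%, 1.06% were open at the chromosome 20 peak (0.46 to 2.07%), and of the 952 with 2 to 4%, 1.89%. Among the 348 nuclei with 10 to 12% it was 21.6% (17.4 to 26.3%), and among the 288 with 12% or more 21.9% (17.2 to 27.1%). Most nuclei rich in member calls were thus closed at the chromosome 20 peak itself.

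**Figure D3:**
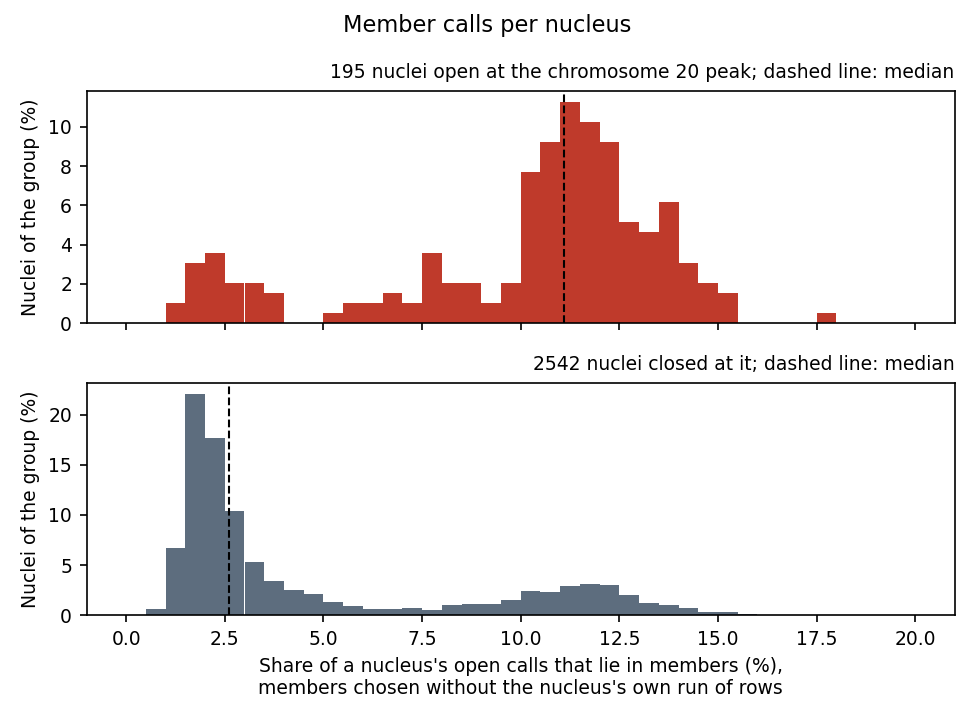
Histograms of the share (%) of each nucleus's open calls that lay in members, chosen without the nucleus's own run of rows, for the 195 nuclei open at the chromosome 20 peak (top) and the 2542 closed at it (bottom); heights are percent of the group. Both groups show a mode near 2% and another near 11 to 12%, and the dashed medians lie at 11.1 and 2.60%.

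Among closed nuclei, the members moved together across chromosomes. Over the 2542 closed nuclei, the share of calls in the 663 members on odd-numbered chromosomes and that in the 612 on even-numbered ones had a Pearson correlation of 0.9503 and a Spearman correlation of 0.775. Both shares come from the same nucleus and the same total of calls, and the nuclei form separate modes, so the correlation describes that separation. Counted by pairs on different chromosomes, nuclei open at both members of a pair were 1.23 times as many as the depths of the nuclei and the rates of the peaks predict (SD over chromosomes 0.0436). For pairs of other tested peaks it was 1.005. The sets chosen by the chromosome 18 and chromosome 14 peaks, described below, had higher values than these members. Since deep nuclei dominate that sum, every nucleus was also weighted alike, which gave 1.84 for members and 0.9996 for the others. Within every class of openness from 20 to 399 nuclei the members were higher, by 1.49 against 1.31 for peaks in 20 to 39 nuclei and by 1.21 against 0.979 for those in 160 to 399. In the class of 20 to 39 nuclei, the difference was smaller than the SD over chromosomes (0.263). The rule used the level of members in these nuclei but not which members opened together.

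The nuclei were then grouped by a shared-neighbour graph built from 44224 peaks, with the members and the 100 kb around the chromosome 20 peak left out. This gave 19 clusters, of which 14 had at least 50 nuclei. Clusters 1, 5 and 12, with 380, 265 and 80 nuclei, had median member shares of 11.6, 10.7 and 10.98%. The other 11 clusters of that size had medians of 1.53 to 3.16%. Among the 5 small clusters, medians were 2.60 to 8.22%, with cluster 18 (23 nuclei) the highest. A limit of 8%, for clusters of at least 50 nuclei, was set after these values were seen. Clusters 1, 5 and 12 carry no cell type name here, since marker positions were not used.

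Together, clusters 1, 5 and 12 held 725 nuclei (26.5%) and 146 of the 195 nuclei with the chromosome 20 peak open (74.9%, 68.2 to 80.8%). These clusters were picked for their share of members, and nuclei open at the chromosome 20 peak had chosen the members. A higher share of open nuclei in them therefore partly follows from the choice. The peak was open in 26.6% of cluster 1 (22.2 to 31.3%), 12.8% of cluster 5 (9.05 to 17.5%) and 13.75% of cluster 12 (7.07 to 23.3%), against 2.44% of the 2012 other nuclei (1.81 to 3.21%). Among these other nuclei, the 5 small clusters had 8.70 to 13.6% open, levels like those of clusters 5 and 12. They held 22 to 37 nuclei each, and their intervals reached from 1.07 to 34.9%. Clusters 1, 5 and 12 were together shallower than all other nuclei, with a median of 915 open peaks against 1308. The share of open nuclei at like depth was not tested. Cluster 11 was an exception in the other direction. It had 9 of 102 nuclei open at the chromosome 20 peak (8.82%, 4.11 to 16.1%) but a median member share of 1.75%, and of 2.54% in those 9. The small cluster 16 was similar, with 3 of 29 nuclei open (10.3%, 2.19 to 27.4%) and a median member share of 2.60%, and of 4.46% in those 3.

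**Figure D4:**
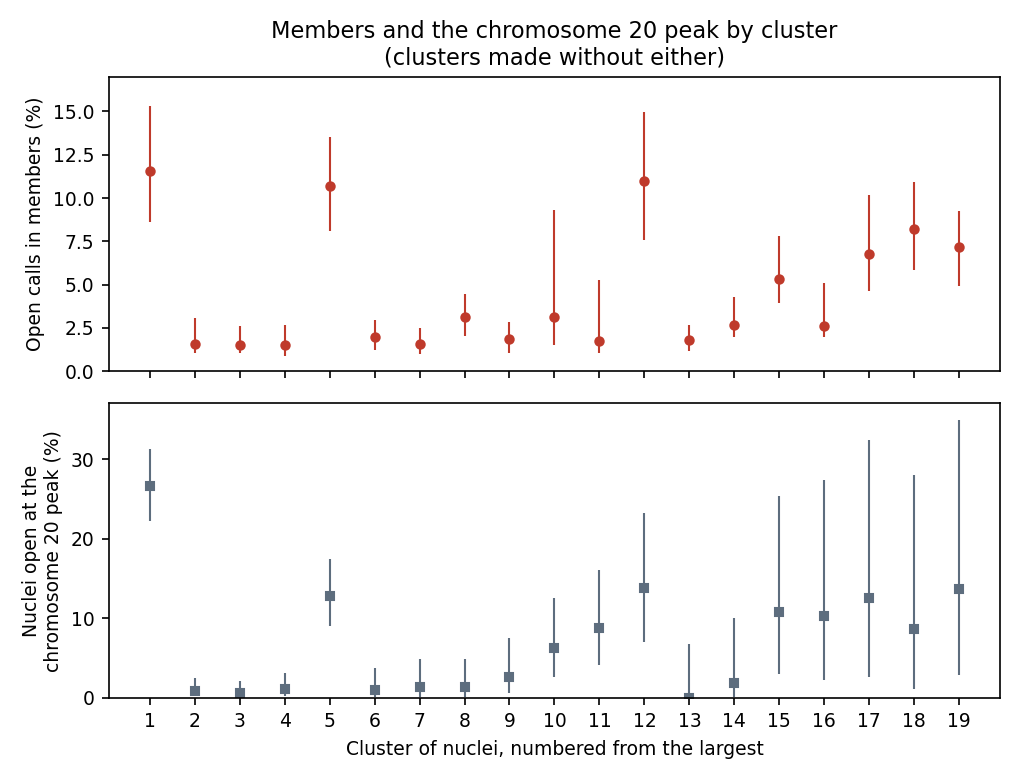
Upper panel: median share (%) of a nucleus's open calls that lay in members for each of the 19 clusters, with lines from the 5th to the 95th percentile. Lower panel: share (%) of the nuclei of each cluster that were open at the chromosome 20 peak, with 95% Clopper-Pearson intervals; clusters 1, 5 and 12 stand out in the upper panel at 10.7 to 11.6%, and clusters 15 to 19 hold 22 to 37 nuclei each.

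Most members had their highest level in these clusters. Among the 14 clusters with at least 50 nuclei, 1151 members (90.3%) were highest in cluster 1 (537), cluster 5 (233) or cluster 12 (381), against 21.3% of all tested peaks. By cluster these were 42.1, 18.3 and 29.9% of members, against 6.99, 6.42 and 7.91% of tested peaks. Levels were compared here without added CPM. Cluster 12 has 80 nuclei with a median of 719 open peaks, so a highest level there can rest on few calls. The ratio of the 3 clusters to all other nuclei was at least 2 for 1071 members (84%), against 10.7% of tested peaks, with a median of 3.03 (quartiles 2.26 and 4.71). Since 74.9% of the nuclei that chose the members lie in these clusters, much of this follows from the choice. The background also held 2673 tested peaks that passed this ratio and were no members, so the members are a part of what was more open in these clusters. Another 124 members (9.73%) were highest elsewhere, most often in cluster 14 (34) and cluster 8 (28).

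Single members differed in how they were spread over the 3 clusters. The broadly open chr8:26059370-26061049 was open in 55.8, 53.2 and 47.5% of clusters 1, 5 and 12 and in 9.10% of the other nuclei, and chr5:42277536-42278100 in 21.3, 19.6 and 23.75% against 1.69%. The member at ctbp2a was open in 11.1, 10.6 and 11.25% against 1.79%. These members were thus at like levels in all 3. In contrast, chr7:56886408-56886766 was open in 25 nuclei of cluster 1 (6.58%), 1 of cluster 5 (0.38%) and 1 of cluster 12 (1.25%), and chr20:840030-840355 in 20, 4 and 0. Cluster 12 is small, and its 0 of 80 nuclei had an upper interval bound of 4.51%, while a floor of 3 counts lies at 3.75%. The peak chr23:27564068-27564614 was open in 10.8% of cluster 1 and 11.25% of cluster 12 but in 1.89% of cluster 5 (0.62 to 4.35%). Over all members, 142 (11.1%) were at least 2 times as high in cluster 1 as in cluster 5, against 2.9% of tested peaks, and 2 (0.16%) were at most 0.5 times as high, against 1.16%. For cluster 1 against cluster 12 the counts were 181 (14.2%, against 6.06% of tested peaks) and 31 (2.43%, against 13.2%). The lean in both was toward cluster 1, where 51.8% of the nuclei that chose the members lie. For cluster 5 against cluster 12 it was 116 members (9.10%) in each direction, against 5.92% of tested peaks that were higher and 16.3% that were lower in cluster 5.

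The stretches were also more often open in these clusters. Only members of a stretch are counted here, and the clusters were picked for their member share. Much of this therefore follows from the choice, and stretches of other peaks were not read for comparison. At least 1 member of chr5:42232100-42286123 was open in 70.8% of cluster 1, 61.5% of cluster 5 and 58.75% of cluster 12, against 9.15% of other nuclei (7.92 to 10.5%). For chr3:55065837-55105429 it was 59.5, 61.9 and 61.25% against 8.30%, and for chr11:25403580-25461912 it was 50.3, 43.0 and 52.5% against 14.9%. The stretches on chromosomes 5 and 3 thus stood further apart between these clusters and the rest than that on chromosome 11. At least 2 members of chr5:42232100-42286123 were open in 30% of cluster 1 and 1.94% of the other nuclei. The stretch chr2:33304294-33342091 was uneven, at 36.1% of cluster 1 (31.2 to 41.1%) and 32.5% of cluster 12 but 18.1% of cluster 5 (13.7 to 23.3%), against 8.60% elsewhere.

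Inside the clusters, nuclei with the chromosome 20 peak open and closed were nearly alike in members they had not helped to choose. In cluster 1 the median held-out share was 11.8% in 101 open nuclei and 11.7% in 279 closed ones, in cluster 5 it was 11.1 and 11.2% (34 and 231 nuclei), and in cluster 12 it was 11.8 and 11.6% (11 and 69 nuclei). Outside these clusters it was 3.75% (quartiles 2.33 and 7.55%) in 49 open nuclei and 2.21% (1.80 and 3.03%) in 1963 closed ones. Those other nuclei pool clusters with median member shares of 1.53 to 8.22% and unequal shares of open nuclei. Whether the gap holds inside single clusters there, or between nuclei of like depth, was not tested. With the members as chosen on all rows, the medians in cluster 1 were 14.05 and 10.9%, but each nucleus had then taken part in the choice. The gap between open and closed nuclei of the pooled matrix was thus not seen inside clusters 1, 5 and 12. However, the clustering left out only the members chosen on all rows. Of the 1305, 1371, 1286 and 1476 peaks chosen without each run, 1117, 1054, 819 and 1019 were among these. The other held-out peaks could help to define the clusters, which can narrow the held-out shares within them. Whether a gap remains in clusters built without those peaks was not tested.

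**Figure D5:**
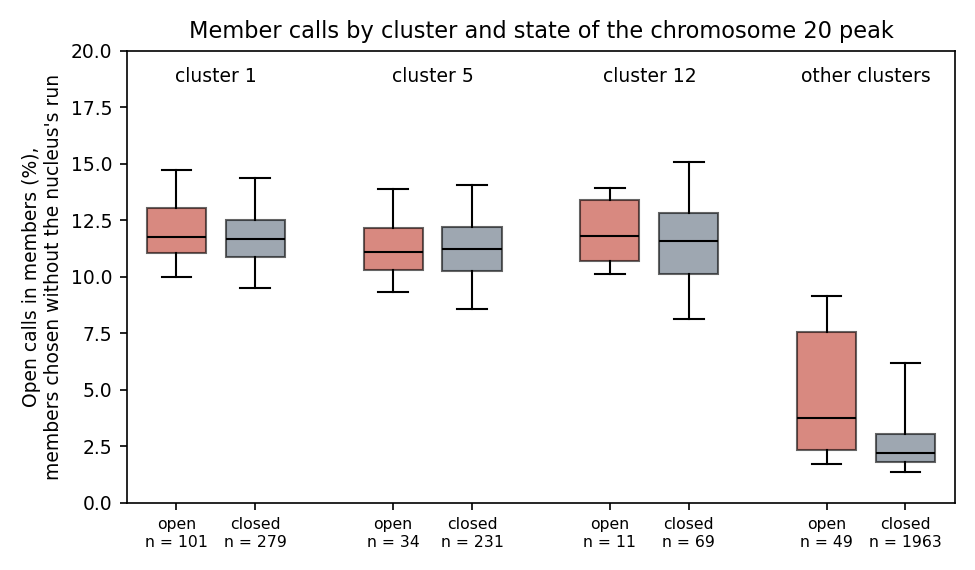
Share (%) of each nucleus's open calls that lay in members, chosen without its own run of rows, by cluster and by the state of the chromosome 20 peak; boxes show quartiles and median, whiskers the 5th and 95th percentiles. Open and closed boxes overlap almost fully in clusters 1, 5 and 12, with medians of 11.1 to 11.8%. In the other clusters, which are pooled and differ in member share, the medians lie at 3.75 and 2.21%.

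The contrast that chose the members was also read inside and outside the 3 clusters. Inside, with 146 open and 579 closed nuclei, the median ratio of the members was 1.33 (other tested peaks 0.972), and 147 of them (11.5%) reached 2, against 1.96% of tested peaks. Outside, with 49 open and 1963 closed nuclei, the median was 1.76 (0.926), and 477 (37.4%) reached 2, against 4.29%. These nuclei had all taken part in the choice, which raises both values. Member shares also differed between the clusters pooled outside, and no adjustment was made for that or for depth. When the rule was applied anew inside the clusters, 8473 peaks were open in at least 20 of the nuclei there and 106 were chosen (1.25%), of which 77 were among the 1275. Outside them, 33153 peaks could be tested and 1309 were chosen (3.95%), of which 362 were among the 1275. The numbers chosen thus also follow how many peaks could be tested.

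The share of nuclei in clusters 1, 5 and 12 also differed between the runs of rows, at 14.4% in the first (11.2 to 18.1%), 20.8% in the second, 33.7% in the third and 31.0% in the fourth. Nuclei open at the chromosome 20 peak were in these clusters in 5 of 14, 24 of 35, 59 of 73 and 58 of 73 cases. Within these clusters, held-out shares of open and closed nuclei had medians of 12.3 and 12.1%, 11.9 and 11.5%, 11.3 and 11.3%, and 12.1 and 11.8% in the 4 runs. Whether the runs are the libraries of the time points cannot be told from the matrix, and the part of time in these differences was not tested.

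Peaks on chromosomes 18 and 14 that were split by the same rule gave other sets. They share most of their closed nuclei with the contrast above, so the values are set side by side only. The chromosome 18 peak was open in 141 nuclei and chose 3794 peaks (10.8% of those tested), and the chromosome 14 peak was open in 168 and chose 1965 (5.61%). Co-opening of pairs on different chromosomes was 2.68 and 2.12 among these 2 sets, against 1.23 among the 1275 members. With every nucleus weighted alike it was 2.48 and 2.12, against 1.84. Co-opening was thus not particular to the 1275 members, which had the lowest value of the 3 sets. The 1275 members had a median ratio of 0.59 in the chromosome 18 contrast, where 447 (35.1%) were at 0.5 or less against 9.52% of tested peaks. In the chromosome 14 contrast the median was 0.62, and 342 (26.8%) were at 0.5 or less against 7.14%. Only 1 nucleus was open at both the chromosome 20 and chromosome 18 peaks, and 3 at both the chromosome 20 and chromosome 14 peaks. The depth of the nuclei and the rates of the peaks gave an expectation of 13.96 and 16.6. Most nuclei that chose the members were therefore closed at these 2 peaks. Their calls raise the closed level of the members, so low ratios of members in these contrasts partly follow from the choice. The nuclei open at those peaks were deeper, with medians of 1649 and 1707 open peaks against 1085.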

How the data were processed

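The authors aligned reads with cellranger-atac, merged the 4 time points, processed them with SnapATAC and removed cardiomyocyte and doublet clusters, so no doublet caller was run. The deposited values are binarized open calls, not counts, although the deposit calls them raw, and they carry no further normalization; the submitters' processing notes name danRer11. Depth is how many peaks were open in a nucleus. Peak width is end minus start, and coordinates stand as deposited. The members, comparison sets and lists were chosen with earlier results of these data known. CPM are per 1e+06 open calls of a group. Named peaks were the 10 members of highest ratio, the 5 most open, and 3 on either side of the limit.

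For clustering, peaks open in at least 10 nuclei, other than the members and the 100 kb around the chromosome 20 peak, were weighted by term frequency (scale 10000) and inverse document frequency. Component 1, which followed depth (absolute correlation of at least 0.5), was dropped, and 15 were kept. A graph over 15 neighbours was grouped with leidenalg 0.10.2 at resolution 1. Python 3.11.15, numpy 2.4.6, scipy 1.17.1 and scikit-learn 1.9.0 were used. The steps were tested on simulated data. No p-value was computed, because the 4 libraries are pooled in 1 matrix and no library is replicated. Start sites, motifs and sequences need a genome and gene positions of danRer11 and were not used here. The planned depth limit of 1000 calls per nucleus was kept as an alternative.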

Additional observations from a re-analysis of the deposited data

How the results depend on the processing

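The number of members moved with the settings of the rule and with the nuclei read. It was 2680 with 1 CPM added, 633 with 20, 4329 at a ratio of 1.5, 151 at a ratio of 3 and 106 inside clusters 1, 5 and 12, where fewer peaks could be tested, an alternative chosen after seeing the data. Over 13 further alternatives it was within 1.5 times of 1275, and leaving out each run in turn gave 1286 to 1476. The median width was 394 bp with 1 CPM added, 419.5 with 5, 481 with 20, 426 for peaks open in at least 10 nuclei, 483.5 for at least 50, 455 at a ratio of 1.5 and 455 for nuclei with at least 1000 open peaks, and its difference from the other tested peaks was 8 bp among peaks of like openness. Co-opening of members in closed nuclei was 1.09 with 1 CPM added, 1.15 with 5, 1.44 with 20, 2.19 at a ratio of 3, 1.28 in depth strata, 1.84 with every nucleus weighted alike and 1.15 to 1.19 over the runs left out, but 0.969 at a ratio of 1.5, so it was not above 1 for a wider set. At a ratio of 3, members read in left-out runs had pooled ratios of 2.61, 3.56, 3.21 and 2.63. The share of open nuclei in clusters rich in member calls stayed at 74.9 to 75.4% under 3 other settings, also chosen after seeing the data. No paired analysis was possible because the rows carry no sample or replicate number. Alternatives on start sites and motifs were not run.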
